A study of Mus musculus with 2 samples.

Results

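Crosslinks of the RNA-binding protein Tia1 were counted on 7 mouse genes of the cyclin D pathway: the D-type cyclins Ccnd1, Ccnd2 and Ccnd3, the kinases Cdk4 and Cdk6, the kinase inhibitor Cdkn1b (p27) and the retinoblastoma gene Rb1. The genes were listed by name, with earlier results of these data known, out of 21091 genes with an annotated 3′UTR, of which 7846 held a site in an exon. The measurement was individual-nucleotide resolution crosslinking and immunoprecipitation (iCLIP), in which UV light ties a protein to RNA, reverse transcription stops next to the tie, and every unique cDNA marks the nucleotide that was bound. Both samples (n = 2, replicates 1 and 2 of 1 group) were cytoplasmic extracts of primary splenic B cells from C57BL/6 mice, aged 8 to 12 weeks per the methods, that had been kept with lipopolysaccharide (LPS, 10 µg/ml) for 48 h. The titles name Tia1, the antibody field of the labels names its relative Tial1, and the methods name an anti-Tia1 antibody. The UV dose and the RNase concentration of the labels also differ from those of the methods. No control sample was analysed here, so background binding was not measured, and neither was the abundance of the transcripts: a strongly bound mRNA and an abundant one cannot be told apart.

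D-type cyclins are the regulatory subunits through which growth signals reach the cell cycle. They bind Cdk4 or Cdk6, the active kinase phosphorylates the retinoblastoma protein, and E2F transcription factors are then released to switch on the genes of S phase. The inhibitor p27 binds cyclin-kinase complexes and holds cells in G1. LPS is a B cell mitogen, and cyclin D2 is the D-type cyclin best known for its induction in activated B cells. Tia1 has a known preference for U-rich RNA and is a component of stress granules.

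Replicate 1 held 639108 cDNAs at 342732 sites and replicate 2 held 165081 at 93512, a ratio of 3.87. A site is a nucleotide that passed the authors' false discovery rate (FDR) of 0.05, in a replicate alone or in the sum of both (the pooled list). For genes, the counts of a replicate cover only those of its sites that are also in the pooled list. A count of 0 below means that no such site passed. Of 8 B cell marker genes, 7 had a 3′UTR site in both replicates (pooled counts from 10 to 1856), whereas T cell genes had 0 of 6, genes of the myeloid lineage 2 of 6 and erythroid genes 1 of 4. Of all genes with a site in an exon, 59.0% had a 3′UTR site in both replicates. Such an exonic site was held by 8 of the B cell, 1 of the T cell, 3 of the myeloid and 1 of the erythroid markers. The summed 3′UTR cDNAs in replicates 1 and 2 were 2961 and 686 for the B cell markers, 4 and 0 for the T cell markers, 29 and 6 for the myeloid markers and 25 and 3 for the erythroid markers.

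The windows below lie around the highest site of the largest 3′UTR cluster of each gene, and for Ccnd2 also of the cluster next in size (middle). Each is 29 nt of the transcript, read 5′ to 3′ from the GRCm38 genome sequence of RefSeq and written as RNA, with the nucleotides that passed in both replicates in capitals. For Ccnd3 and Cdk6, where no nucleotide passed in both, the capital marks the highest site of that cluster. Where sites of a cluster tied, that with the lowest coordinate was taken, as in Ccnd2 distal, Ccnd3, Cdk4 and Rb1. The windows labelled U run, proximal and next were chosen after the counts were seen.
Ccnd2 distal (chr6:127125503-127125531, minus strand): uUUUUaauUUgcUUUaagagugcgaugcc
Ccnd2 U run (chr6:127125520-127125548, minus strand): UuguUCCUUUUUUUUUUuUUUUaauUUgc
Ccnd2 middle (chr6:127128636-127128664, minus strand): cUuaucUUUcaUuUUUucUUuuguUcUgu
Ccnd3 (chr17:47599059-47599087, plus strand): cacaccagcauuucUuuugagucccucuu
Cdk4 (chr10:127067240-127067268, plus strand): UUaUacugggAuCUUUUUUauacaggaaa
Cdk4 proximal (chr10:127067115-127067143, plus strand): UUUUacagagaaUaUUUUaagccUUaaau
Cdk6 (chr5:3520991-3521019, plus strand): ucguuuguacacuuGuuuguuuugucugu
Cdkn1b (chr6:134924480-134924508, plus strand): cuguguauauagUUUUUaUcUuUUacucu
Cdkn1b next (chr6:134925288-134925316, plus strand): aaaagaGAuUUUUUUUuaaucuagacaau
Rb1 (chr14:73195537-73195565, minus strand): gcuauguUccuauuUucUauaauaguuug
Rb1 next (chr14:73196817-73196845, minus strand): aauUUauauguauuUUUuaaUuuaacgug
The capitals of both Ccnd2 windows at the top of the list belong to the same cluster, and these windows overlap. In the Ccnd2 U run window 18 of the 20 capitals were U, and in the Cdk4 window 9 of 11. All 9 capitals of the first Cdkn1b window and all 3 of the first Rb1 window were U.

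Of the 7 genes, 6 held a site in an exon, and 5 of those had at least 1 site in the 3′UTR in both replicates (Ccnd2, Cdk4, Cdk6, Cdkn1b and Rb1), where 59.0% of all genes with an exonic site did. Taken alone, replicate 1 had a 3′UTR site in 6 of them (85.7% of all genes) and replicate 2 in 5 (61.0%). With at least 10 cDNAs in each replicate asked for, 4 of the 6 were left (Cdk6 dropped out), against 31.9% of all genes. Over the members the 3′UTRs held 2470 pooled cDNAs, with 1801 in replicate 1 and 504 in replicate 2. They made up 94.4% of the sense-strand cDNAs of these genes in replicate 1 (exact Clopper-Pearson 95% interval 93.3 to 95.4) and 93.3% in replicate 2 (90.9 to 95.3), a mean of 93.9% ± 0.75 (SD, n = 2). These intervals cover counting error only, as do all those that follow. Over all sites of the series the 3′UTR share was 79.6% and 82.1%. That share also counts sites outside annotated genes and in non-coding genes, so its base is wider than that of the members.

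**Figure D1:**
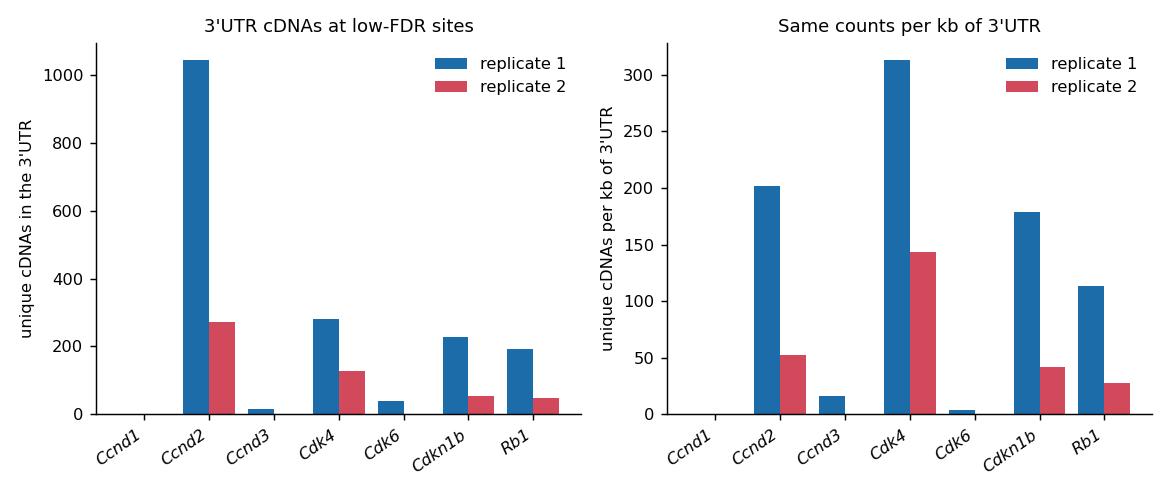
Unique cDNAs at low-FDR sites in the 3′UTR of each gene (left, vertical axis in cDNAs) and the same counts per kb of 3′UTR (right), with replicate 1 in blue and replicate 2 in red. Ccnd2 is highest in cDNAs (1042 and 271), whereas Cdk4 is highest per kb (313 and 143).

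Ccnd2, encoding cyclin D2, carried most of the signal, with 1042 3′UTR cDNAs in replicate 1, 271 in replicate 2 and 1348 in the pooled list at 510 sites. That was 57.9% (interval 55.5 to 60.2) and 53.8% (49.3 to 58.2) of the 3′UTR cDNAs of all 7 genes, and rank 35 among the 7300 genes with a pooled 3′UTR site. Its closest genes in that order were Scd2 with 1370 pooled cDNAs and Rap1b with 1328. Ccnd1, encoding cyclin D1, had 0 cDNAs at sites in both replicates and in the pooled list, in every part of the gene (chr7:144929931-144939925, minus strand). The unfiltered map of all crosslinks of both replicates held 17 cDNAs on that strand from position 144752090 to the end of the chromosome, a stretch that includes Ccnd1, with no more than 1 at any position. Ccnd3, encoding cyclin D3, had 15 cDNAs in replicate 1 and 0 in replicate 2, at 12 sites. The cyclins thus ranged from 0 to 1348 pooled cDNAs, and Ccnd2 was the only D-type cyclin with a site in both replicates.

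Among the kinases, Cdk4 had 281 cDNAs in replicate 1, 129 in replicate 2 and 413 pooled at 83 sites. Cdk6 had 40, 2 and 47 at 42 sites, and 37 of these sites rested on a single cDNA. Cdkn1b, the p27 gene, had 229 and 54, with 378 pooled at 118 sites. In Rb1, whose protein the cyclin D kinases phosphorylate, there were 194 and 48, with 269 pooled at 160 sites. At each of the 6 genes with sites the count was higher in replicate 1, which held more cDNAs at sites in total.

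The 3′UTRs were from 899 nt (Cdk4) to 10217 nt (Cdk6) long, and per kb the order of the genes changed. Cdk4 led with 313 cDNAs per kb in replicate 1 and 143 in replicate 2, followed by Ccnd2 (201 and 52.4), Cdkn1b (179 and 42.2) and Rb1 (114 and 28.1). Ccnd3 (16.4 and 0) and Cdk6 (3.92 and 0.196) were lowest. The order Cdk4, Ccnd2, Cdkn1b, Rb1 was the same in both replicates, but the place of Cdkn1b depends on its 3′UTR model. These values use the spliced 3′UTR, chosen after the data were seen, and with the longest annotated 3′UTR, which keeps an intron, Cdkn1b had 66.6 and 15.7 per kb (110 pooled) and stood below Rb1. In the pooled list Cdkn1b with its spliced 3′UTR (295 per kb) stood above Ccnd2 (261). Of the pooled cDNAs, 95 in Cdkn1b and 35 in Ccnd2 were absent from the sites of the single replicates. Cdk6 has 2 annotated 3′UTR ends, and with the shorter of these its pooled value was 32.8 per kb in place of 4.60.

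The share of replicate 2 in the cDNAs of both replicates was 21.1% over the 3′UTRs of all genes. Ccnd2 (20.6%, interval 18.5 to 22.9), Cdkn1b (19.1%, 14.7 to 24.2) and Rb1 (19.8%, 15 to 25.4) had shares whose intervals include that value. Cdk4 lay above it, at 31.5% (27 to 36.2). Its closest genes by pooled count had fewer cDNAs in replicate 2, with 330 and 65 for Arl6ip1 and 320 and 76 for Eml4. Cdk6 lay below it, at 4.76% (0.582 to 16.2), and its closest genes were Bhlhe41 (38 and 3) and Cnot8 (29 and 12). For Ccnd3 the upper bound was 21.8%. Cdkn1b stood between Wdr1 (293 and 73) and Cnot6 (259 and 58), and Rb1 between Peli1 (202 and 48) and Aff1 (208 and 49). These shares rest on the sites that passed the filter. Over the members the share was 21.9%, and 33.4% when only sites called in both replicates were counted. Between the first and last 3′UTR site the filter kept 100% of the cDNAs in Cdk4, 94.4% in Rb1, 82.5% in Ccnd2 and 64.6% in Cdkn1b. Whether unequal site calling shaped the share of Cdk4 was not tested. With 2 samples of 1 group no test over samples was possible.

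**Figure D2:**
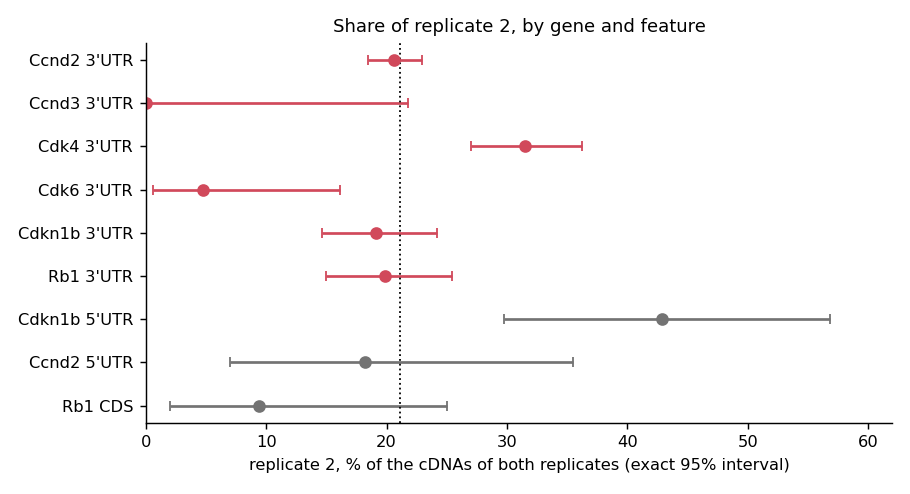
The cDNAs of replicate 2 as a percentage of those of both replicates (horizontal axis), for the 3′UTR of 6 genes (red) and for 5′UTR or coding sites (grey), with exact 95% intervals as bars and the value over all 3′UTRs (21.1%) as a dotted line. Cdk4 and the Cdkn1b 5′UTR lie above the line and Cdk6 below it.

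Along the Ccnd2 3′UTR (chr6:127125162-127130334, minus strand, 5173 nt, a single exon of Ccnd2-201), sites joined at 15 nt or less formed 22 clusters of 6 to 244 nt. They ran from 34 to 4904 nt after the stop codon and covered 22.4% of the 3′UTR. A distal cluster 4613 to 4856 nt after the stop codon, ending 317 nt before the annotated 3′ end (chr6:127125479-127125722), held 296 cDNAs of replicate 1, 121 of replicate 2 and 419 pooled. It was 28.4% of the Ccnd2 3′UTR cDNAs in replicate 1 (interval 25.7 to 31.3) and 44.6% in replicate 2 (38.6 to 50.8). A middle cluster 1662 to 1839 nt after the stop codon held 200 and 55 cDNAs (19.2% and 20.3%), and a proximal cluster at 57 to 100 nt held 81 and 30 (7.77% and 11.1%). The middle and proximal shares of both replicates overlap in their intervals (16.8 to 21.7 and 15.7 to 25.6, then 6.22 to 9.57 and 7.59 to 15.4), whereas those of the distal cluster do not. All 22 clusters held cDNAs of replicate 1 and 13 held cDNAs of replicate 2. Over these 13 alone the distal share was 31.4% (28.5 to 34.5) in replicate 1 and 44.6% in replicate 2. The median cDNA lay 1796 nt after the stop codon in replicate 1 and 3461 nt in replicate 2. Replicate 1 had 457 sites in this 3′UTR and replicate 2 had 157. The shares and medians thus rest on unequal site calls, within the shared clusters too. Whether binding was placed differently in the replicates was not tested.

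Within the distal Ccnd2 cluster an unbroken run of 15 U, 4794 to 4808 nt after the stop codon, carried sites on each of its 15 nucleotides. It held 85 cDNAs of replicate 1 and 46 of replicate 2. The highest sites of the cluster, with 18 pooled cDNAs each, were at 4818 nt (15 and 3) and 4641 nt (11 and 7). The highest site of the whole 3′UTR lay elsewhere, 1022 nt after the stop codon, with 19 pooled cDNAs, in a cluster of 27 and 8 cDNAs. Ccnd2 had 5 runs of at least 8 U, and each lay in a cluster.

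**Figure D3:**
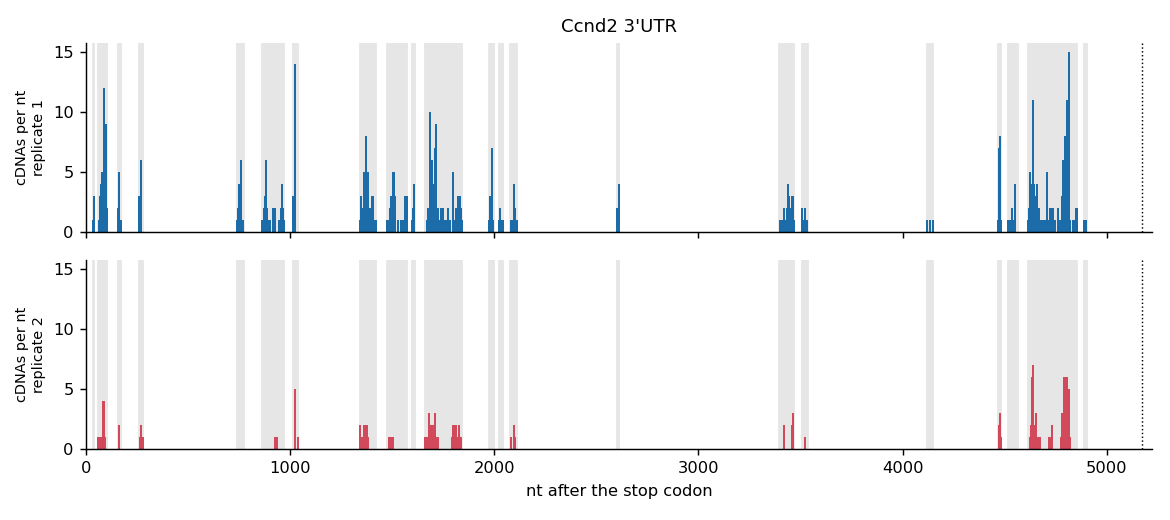
Unique cDNAs at each low-FDR nucleotide (vertical axis) along the Ccnd2 3′UTR, in nt after the stop codon (horizontal axis), in replicate 1 (blue, top) and replicate 2 (red, bottom), with the 22 clusters of the pooled list in grey and the annotated end as a dotted line. The distal cluster at 4613 to 4856 nt holds 296 cDNAs in replicate 1 and 121 in replicate 2.

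The Ccnd3 3′UTR (chr17:47598777-47599691, plus strand, 915 nt) had 2 clusters, both from replicate 1 alone. The first, 293 to 315 nt after the stop codon, held 11 cDNAs, and the second, ending 23 nt before the 3′ end, held 4. No site reached more than 2 cDNAs.

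In Cdk4 (3′UTR chr10:127067022-127067920, plus strand, 899 nt) all 413 pooled cDNAs lay in a single cluster of 160 nt, from 84 to 243 nt after the stop codon. The remaining 656 nt up to the 3′ end held none. Sites of at least 5 pooled cDNAs made up 79.9% of its count, against 46.7% in Ccnd2, 57.9% in Cdkn1b and 23.8% in Rb1. Joined at 5 nt instead of 15 nt, the cluster fell into pieces with a pair of peaks. The piece at 90 to 130 nt held 117 cDNAs of replicate 1 (41.6%) and 58 of replicate 2 (45.0%), and that at 218 to 243 nt held 103 (36.7%) and 61 (47.3%). The highest sites, at 233 and 235 nt, had 16 and 10 cDNAs each. Of the 39 sites of replicate 2, 33 were also sites of replicate 1, which is 84.6%. The opposite strand of the Cdk4 gene held 53 further cDNAs, which were not counted.

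In Cdk6 (3′UTR chr5:3520792-3531008, plus strand, 10217 nt in Cdk6-202) the sites were thin and spread over 14 clusters of at most 6 cDNAs. All 42 sites lay between 104 and 1348 nt after the stop codon. They are inside the 1434 nt of the shorter 3′UTR of Cdk6-201, and the 3′UTR beyond its end held none. Both cDNAs of replicate 2 lay in a cluster at 1172 to 1185 nt in which replicate 1 had no site, so no Cdk6 nucleotide and no cluster was shared. The Cdk6 call in both replicates therefore rests on 2 cDNAs.

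The Cdkn1b 3′UTR is interrupted by an intron in Cdkn1b-201, which leaves 1280 nt in 2 exons (chr6:134922075-134925513 with the intron, plus strand). Its sites formed 11 clusters, of which 2 held all 54 cDNAs of replicate 2. The first of these, 226 to 275 nt after the stop codon (chr6:134924459-134924508), had 114 cDNAs of replicate 1 (49.8%, interval 43.1 to 56.4) and 30 of replicate 2 (55.6%, 41.4 to 69.1). The other, at 1033 to 1082 nt (chr6:134925266-134925315), had 46 (20.1%, 15.1 to 25.9) and 24 (44.4%, 30.9 to 58.6). Over these clusters alone the distal share was 28.8% (21.9 to 36.4) in replicate 1, an interval that overlaps that of replicate 2. Clusters at 741 to 753 nt with 20 pooled cDNAs and at 1207 to 1218 nt with 24 passed in the sum of both replicates only. The cluster nearest the stop codon reached across the splice site into the last bases of the intron, with 3 cDNAs there, all of replicate 1.

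Rb1 (3′UTR chr14:73195502-73197210, minus strand, 1709 nt) had 21 clusters over 35.1% of its 3′UTR, the largest covered share of the 7 genes, of which 4 held 10 or more pooled cDNAs. A cluster at 359 to 420 nt after the stop codon held 52 cDNAs of replicate 1 (26.8%) and 17 of replicate 2 (35.4%). Another at 1605 to 1682 nt, which ended 27 nt before the 3′ end, held 54 (27.8%) and 18 (37.5%). Together they made up 54.6% of the Rb1 cDNAs in replicate 1 and 72.9% in replicate 2. Of its sites, 71.9% rested on a single cDNA, against 49.2% in Ccnd2 and 43.4% in Cdk4.

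**Figure D4:**
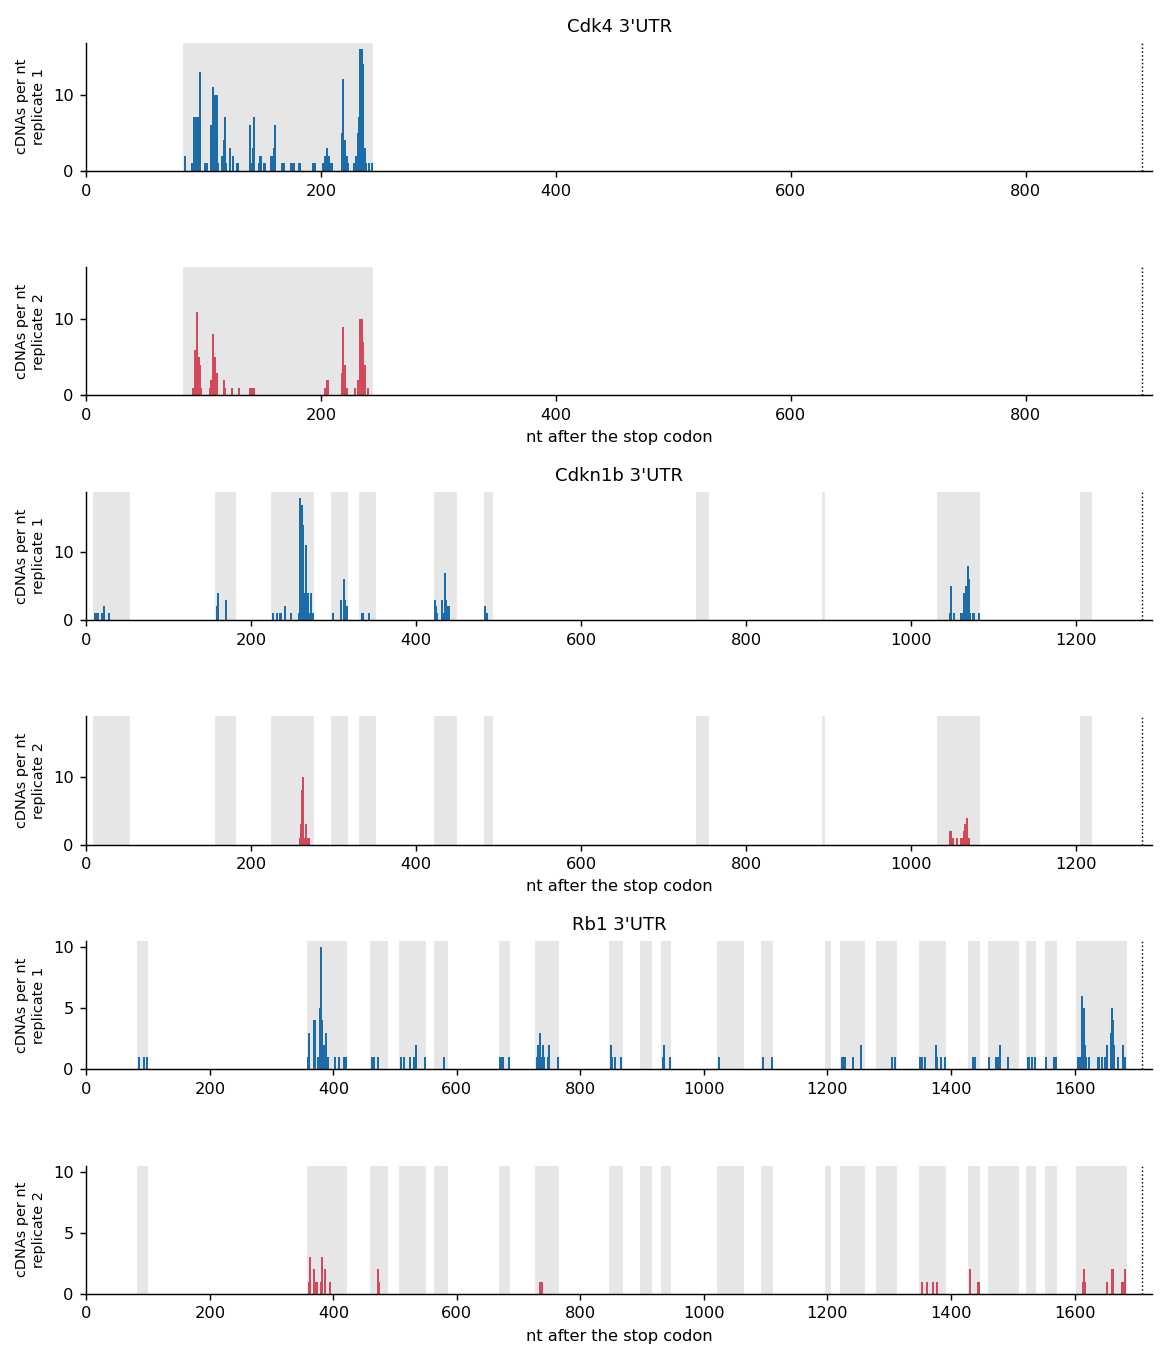
Unique cDNAs at each low-FDR nucleotide (vertical axis) against nt after the stop codon (horizontal axis) for Cdk4, Cdkn1b (intron removed) and Rb1, in replicate 1 (blue) and replicate 2 (red), with pooled clusters in grey and the annotated end as a dotted line. Cdk4 has all its sites between 84 and 243 nt, Cdkn1b has replicate 2 sites in 2 clusters, and Rb1 has sites along most of its length.

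Crosslinks outside the 3′UTR lay mainly in the 5′UTR of Cdkn1b and Ccnd2 and in the coding sequence and introns of Rb1. In the Cdkn1b 5′UTR, 32 cDNAs of replicate 1 (12.2% of its Cdkn1b cDNAs, interval 8.51 to 16.8) and 24 of replicate 2 (30.8%, 20.8 to 42.2) were found. A cluster of 17 nt, 44 to 60 nt upstream of the start codon, held 28 and 24 of them, and its sequence is a pyrimidine tract.
Cdkn1b 5′UTR (chr6:134920855-134920883, plus strand): uuuauUuCaUUUUuUUUuuUccggagaga
The share of replicate 2 in these 5′UTR cDNAs was 42.9% (29.7 to 56.8), above the 19.1% of the Cdkn1b 3′UTR, with intervals that do not overlap. The site call differed between these parts. Of 378 pooled cDNAs in the 3′UTR, 95 were absent from the sites of the single replicates, whereas the 5′UTR had 56 pooled. Whether this shaped the contrast was not tested. The Ccnd2 5′UTR had 27 and 6 cDNAs, of which 26 and 6 lay 109 to 155 nt upstream of the start codon. In coding sequence, Rb1 had 29 and 3 cDNAs (12.2% and 5.88% of its cDNAs), Ccnd2 3 and 3 and Cdkn1b 1 and 0. Introns held 15 and 0, all in Rb1, since a base that any transcript has in its 3′UTR was counted there, the 3 cDNAs in the Cdkn1b-201 intron included. The 5000 nt downstream of each gene held 0 cDNAs on its strand.

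Bases around the sites were richer in U than the 3′UTRs they lie in, except at the 2 replicate 2 sites of Cdk6. Without a control sample, how much of this is particular to Tia1 was not measured. In windows of 31 nt centred on each site, U made up 47.7% in replicate 1 and 54.9% in replicate 2 for Ccnd2, whose whole 3′UTR is 29.5% U. The values were 43.5% and 51.0% for Rb1 (3′UTR 34.7%), 42.5% and 48.7% for Cdkn1b (34.8%) and 33.7% and 36.6% for Cdk4 (26.7%). For Ccnd3 the windows of replicate 1 had 36.6% against 25.0%. Cdk6 had 39.2% in replicate 1 and 22.6% at the 2 sites of replicate 2, against 30.7%. Over all members the mean was 47.7% ± 4.3 (SD, n = 2). The crosslinked nucleotide itself was U at 67.6% and 79.0% of the Ccnd2 sites, 53.9% and 74.4% of the Cdk4 sites, 72.2% and 81.8% of the Cdkn1b sites and 66.1% and 94.1% of the Rb1 sites.

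**Figure D5:**
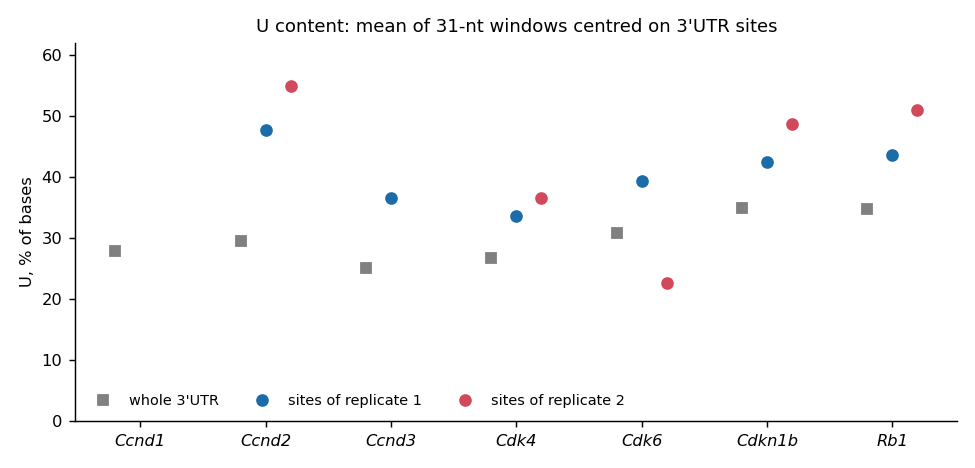
U as a percentage of bases (vertical axis) in the whole 3′UTR of each gene (grey squares) and as the mean over 31-nt windows centred on the sites of replicate 1 (blue) and replicate 2 (red). In Ccnd2, Cdk4, Cdkn1b and Rb1 both replicates lie above the 3′UTR; the replicate 2 value of Cdk6 rests on 2 sites, and Ccnd1 has none.

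Short motifs were searched on the transcript strand of the 3′UTRs, with overlapping matches counted. A match is a description of the sequence and not a binding site. It counted as in a cluster where any of its bases lay in one. The covered shares given beside these counts are of single bases, which is a narrower measure. UUUUU occurs in 72.4% of all 3′UTRs (5.70 per kb). In Ccnd2, 45 of its 48 matches lay in clusters, which cover 22.4% of the 3′UTR, and in Rb1 all 16 of 16 did, with 35.1% covered. The figures were 4 of 7 in Cdk4 (17.8% covered), 16 of 40 in Cdkn1b (20.5%) and 6 of 73 in Cdk6 (1.44%). Ccnd3, with 15 cDNAs, has no UUUUU, whereas Ccnd1, with none, has 15 matches, or 5.61 per kb.

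Long runs of U were not uniformly covered. A run of 23 U in Cdkn1b, 880 to 902 nt after the stop codon, held 1 pooled cDNA and no site in either replicate alone, while a run of 9 U at 1063 to 1071 nt held 33 and 16 cDNAs. In Cdk6 a run of 25 U began 1446 nt after the stop codon, just beyond the shorter 3′UTR, and had none. How well reads map inside such runs was not tested.

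The AU-rich pentamer AUUUA is present in 65.2% of all 3′UTRs. By the same rule of any shared base, 10 of 11 matches in Rb1 counted as in a cluster. Those at 760, 896, 1196, 1255 and 1277 nt only reached across a cluster edge. The clusters met at 896 and 1196 nt held 2 and 3 pooled cDNAs and none in either replicate alone. The figures were 1 of 1 in Cdk4, 1 of 4 in Cdkn1b, 1 of 2 in Ccnd2 and 0 of 15 in Cdk6. The Pumilio element UGUANAUA, found in 23.2% of all 3′UTRs, is the recognition sequence of the Pumilio family of translational repressors. Cdkn1b has 2 matches. That at 250 to 257 nt after the stop codon, UGUAUAUA, lay inside the highest Cdkn1b cluster, directly beside a site at 258 nt. It can be read in the Cdkn1b window above just before the capitals. The match itself held 0 sites, and the site at 258 nt held 1 pooled cDNA (1 and 0 in replicates 1 and 2). All 145 cDNAs of that cluster were within 30 nt of the match, which its span of 226 to 275 nt makes unavoidable. The match at 1004 nt lay outside the clusters, with 11 pooled cDNAs within 30 nt.

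Matches to the seeds of microRNAs known for targeting these mRNAs were also placed. In human cells miR-16 is known to repress D-type cyclins and miR-221 to repress p27. Their mature sequences in RefSeq are shown with the seed (bases 2 to 8) in capitals.
mmu-miR-16-5p: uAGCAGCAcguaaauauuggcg
mmu-miR-221-3p: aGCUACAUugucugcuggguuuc
The miR-16 match UGCUGCU, present in 20.3% of all 3′UTRs, occurs once in Ccnd2, at 1787 to 1793 nt after the stop codon. It is inside the middle cluster, with 1 site of 1 pooled cDNA within the match and 46 pooled cDNAs within 30 nt. Ccnd1 and Ccnd3 have 1 match each and Cdk6 has 3, all outside clusters. The miR-221 match AUGUAGC (9.46% of all 3′UTRs) occurs once in Cdkn1b, at 198 nt, in the gap between 2 clusters and 18 nt from the nearest site. In Ccnd2 it has 2 matches, both outside clusters. The let-7a match CUACCUC (9.02% of all 3′UTRs) occurs in Cdk4 at 652 nt, 409 nt from the nearest site.

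In the unfiltered map of both replicates the 160 nt of the Cdk4 cluster held 413 cDNAs, as in the pooled list, so the site filter removed none there. Across the stretch from the first to the last site of each 3′UTR the filter kept 94.4% of the cDNAs in Rb1, 82.5% in Ccnd2, 81.0% in Cdk6, 64.6% in Cdkn1b and 62.5% in Ccnd3 (15 of 24).

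The other genes of the G1 to S transition, as a list of 31, gave a frame for the members. Of these, 26 held an exonic site, 17 had a 3′UTR site in both replicates and 13 had at least 10 cDNAs in each (all genes 59.0% and 31.9%). Over the 26 with a 3′UTR count above 0 the median was 39 pooled cDNAs, beside 28 over all such genes and 324 over the 6 such members. With counts of 0 kept, the median was 26 over the list and 269 over the members. The members were listed with earlier results of these data known, so their higher median is no independent result. These counts are not adjusted for 3′UTR length or abundance. The highest were Ccna2 (cyclin A2, the S phase cyclin) with 284 and 109 cDNAs, Tfdp1 (the dimer partner of E2F) with 259 and 64, the kinase inhibitor Cdkn2c (p18) with 144 and 32, the phosphatase Cdc25a with 120 and 30, and Rbl1 (p107, a relative of Rb1) with 113 and 19. Within the pocket protein family Rbl2 (p130) had 13 and 5. Cdkn1c, Cdkn2b, Cdkn2d, E2f1 and E2f6 held no exonic site. In pooled cDNAs Ccnd2 (1348) and Cdk4 (413) stood above every gene of the list, the highest of which was Ccna2 with 406. In replicate 1 alone Ccna2 (284) was above Cdk4 (281), and in replicate 2 below it (109 and 129). Per kb of the longest 3′UTR, Cdkn2c had 509 pooled cDNAs, above the 459 of Cdk4. Ccnd2, with 261 per kb, was below Cdkn2c, Ccna2 (297) and Tfdp1 (282).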

How the data were processed

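Both iCLIP samples of the series were analysed. The authors processed reads with the iCount pipeline and Bowtie (version not given in the sources used here), collapsed PCR duplicates with random barcodes, mapped to mm9 and called sites with Ensembl release 59. Each deposited value is the count of unique cDNAs at a crosslinked position. It is not normalized for depth, and a negative sign marks the minus strand. Per the file headers, low-FDR sites have an FDR under 0.05 (100 permutations, neighbourhood of 15 nt). The authors lifted the pooled list to mm10.

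Here GRCm38 positions were taken row by row from the authors' lifted list, which placed 98.9% and 99.1% of the cDNAs of replicates 1 and 2; nothing was converted. Sites were annotated on their strand with GENCODE M21 with coding sequence taking precedence over 3′UTR, then 5′UTR, other exons and introns. Lengths and distances use Ccnd1-201, Ccnd2-201, Ccnd3-201, Cdk4-201, Cdk6-202, Cdkn1b-201 and Rb1-201. For Cdkn1b the longest annotated 3′UTR keeps an intron and was replaced after the data were seen. Shares have exact Clopper-Pearson 95% intervals. Named genes were all members, the 5 highest genes of the G1 to S list and those without an exonic site, and the genes next to each member by pooled count; Rbl2 was named after its values were seen. Members and lists were chosen with earlier results of these data known. Alternatives were a minimum of 5 pooled cDNAs per site, other annotation orders and 3′UTR models, other joining distances and windows, and leaving out a replicate. Scripts ran in Python 3.11.15 with pysam 0.24.0, pandas 2.3.3, numpy 2.4.6, matplotlib 3.10.9 and scipy 1.17.1. Depth before site calling is unknown per replicate.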

Additional observations from a re-analysis of the deposited data

How the results depend on the processing

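With only sites of at least 5 pooled cDNAs, the members' 3′UTR cDNAs fell from 2470 to 1242, their 3′UTR share moved from 94.0% to 97.7%, the share of Ccnd2 from 54.6% to 50.6%, the clusters from 71 to 32, the share of replicate 2 from 21.9% to 27.8%, U around the sites from 44.3% to 50.3%, and the G1 to S genes with a site in both replicates from 17 to 11; 4 members then had a 3′UTR site in both replicates in place of 5. Joining sites at 5 nt gave 186 clusters. Counting only sites called in both replicates put the share of replicate 2 at 33.4%, and windows of 11 nt gave 50.1% U. Leaving out a replicate gave 504 to 1801 cDNAs, a Ccnd2 share of 53.8% to 57.9%, 29 to 67 clusters and 44.6% to 50.8% U. The same setting gave 5 to 6 members and 17 to 25 G1 to S genes with a site, and a 3′UTR share of 93.3% to 94.4%. With the intron kept in the Cdkn1b 3′UTR its pooled count was 110 per kb in place of 295, an alternative added after the data were seen. Joining at 30 nt gave 56 clusters, and taking the 3′UTR before the coding sequence or only the longest 3′UTR left the counts as they were.

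No paired analysis was possible because both samples belong to 1 group. Replicate 2, which held fewer cDNAs at sites, limits what can be said of Ccnd3 and Cdk6: a cDNA that did not pass the site call is not an absent crosslink. Ccnd1 counts as not detected at this depth. Mapping of reads in U runs and the abundance of each transcript were not measured.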
